A study of Mus musculus with 6 samples.

Results

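Hox genes encode the homeodomain transcription factors that give cells their position along the body and limb axes. Of the 39 protein-coding genes in the table with a symbol made of Hoxa, Hoxb, Hoxc or Hoxd and a number, 38 are described here, out of 47729 genes in all. They were chosen by name alone, with no requirement on level, and comprise 10 genes of cluster A on chromosome 6, 10 of cluster B on chromosome 11, 9 of cluster C on chromosome 15 and 9 of cluster D on chromosome 2. RNA was sequenced from the proximal tibial epiphysis of 14-day-old mice of 2 lines. LS1 is a Longshanks line selected over generations for long tibiae relative to body mass (n = 3 mice), and the Control line, labelled Control (ICR), was bred without that selection (n = 3). The labels name no engineered allele and no treatment for either line. Both epiphyses of a mouse made 1 library, and the dissected piece held growth plate, metaphysis, articular cartilage, secondary ossification center and marrow, so the values are averages over all of these cells.

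The genes of a cluster lie in the order in which they are switched on along the embryonic axis, and genes at the same place in different clusters form a paralog group, numbered from 1 at the 3′ end to 13 at the 5′ end. In the growing limb the 5′ genes act in order from the body outward. Loss of the whole of group 10 in mice mainly affects the thigh, loss of group 11 the lower leg and forearm, and loss of group 13 the hands and feet. Hox proteins bind DNA together with partners of the Pbx, Meis and Pknox families, and the clusters are held active or silent by Trithorax and Polycomb proteins.

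The libraries held 68803249 to 88745366 reads assigned to genes, and each LS1 library was deeper than each Control library. On the leading principal component over all genes tested, which carried 35.1% of the variance, LS1 replicates 1 and 2 lay at 43.7 and 50.1, the Control libraries at -41.5 to -22.1, and LS1 replicate 3 stood apart from its group at -4.29. Summed Y-linked values were 19313, 30556 and 21893 in Control replicate 3 and LS1 replicates 1 and 3 and 90.5 to 149 in the other libraries, so the sexes were not balanced. The labelled limb matched its markers. *Pitx1*, a hindlimb identity factor, had 871 to 1639 reads per library and *Tbx4*, its hindlimb partner, 257 to 345, while *Tbx5*, the forelimb counterpart, had 33 to 117.

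The Hox genes with the highest levels in the epiphysis were 5′ genes of clusters A and C. Levels of different genes are compared in TPM, which divides the reads of a gene by its exon length and scales each library to the same total. *Hoxc10* and *Hoxa10* were the highest, with a mean over the 6 libraries of 28.4 TPM (range 25.0 to 34.0) and 27.5 TPM (range 21.4 to 35.0). *Hoxa11* followed at 14.4 TPM (11.4 to 16.8) and *Hoxa9* at 12.3 TPM (10.4 to 14.9). These 4 genes held 52.7% of the summed Hox TPM. The ranges of *Hoxc10* and *Hoxa10* overlapped, as did those of *Hoxa11* and *Hoxa9*, and the step from *Hoxa10* down to *Hoxa11* was the single place in the order of all 38 genes at which the ranges of neighbours did not overlap. Even *Hoxc10*, the highest of the 38, ranked 5692 by mean TPM among 47310 genes with a length. Many of the genes ranked were silent, since 31243 to 32298 genes had a read in a library.

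A further 18 Hox genes lay between 1 and 10 TPM, of which 5 were in cluster A, 5 in B, 6 in C and 2 in D. The remaining 16 had a mean under 1 TPM, with 2 in cluster A, 5 in B, 2 in C and 7 in D. Cluster D thus held more of the genes under 1 TPM than any other cluster, 7 of 16. In total 34 of the 38 genes had a read in every library, and *Hoxb13* and *Hoxc12* had 3 reads or fewer in each. At such counts a group difference was not detectable at this depth.

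**Figure D1:**
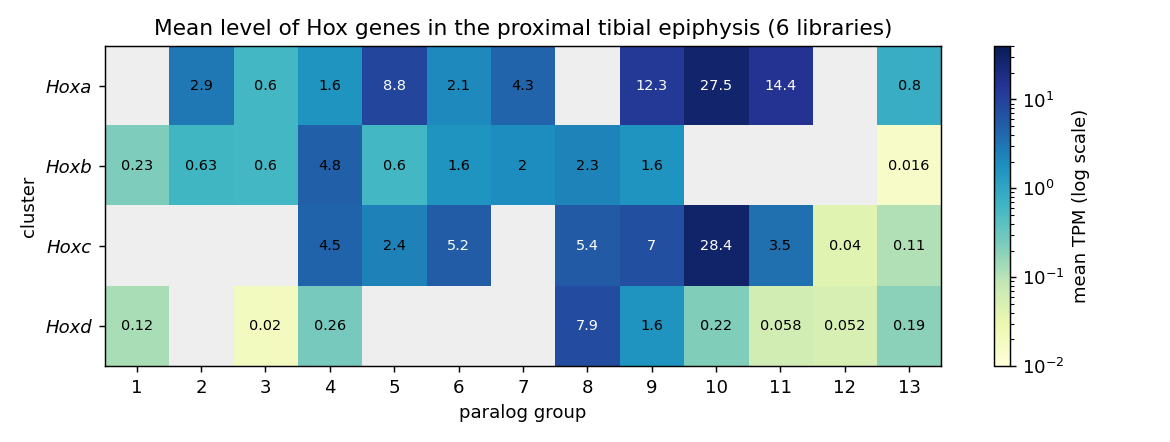
Mean TPM over the 6 libraries for each Hox gene, with clusters as rows and paralog groups 1 to 13 as columns, shaded on a log scale, and grey cells where no gene is described. The darkest cells are *Hoxc10* at 28.4 and *Hoxa10* at 27.5, and *Hoxd10*, in the same column, is at 0.22.

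Within paralog groups the clusters contributed very unequally. In group 10, *Hoxa10* made up 48.8% and *Hoxc10* 50.9% of the TPM, while *Hoxd10* made up 0.382%. In group 11, *Hoxa11* made up 80.0%, *Hoxc11* 19.6% and *Hoxd11* 0.329%. *Hoxa10* (chr6:52231197-52240854, minus strand, GRCm38) had 1886, 1709 and 1577 reads in Control against 2867, 2508 and 2522 reads in LS1. *Hoxd10* (chr2:74691924-74695105, plus strand) had 4, 8 and 6 reads in the Control and 20, 10 and 11 in the LS1 libraries, and it is a paralog known from the early limb bud. *Hoxa11* (chr6:52242106-52245810, minus strand) had 721, 553 and 586 against 961, 1006 and 970 reads, and *Hoxd11* (chr2:74679557-74687016, plus strand) 7, 6 and 4 against 6, 7 and 5. The active and the near-silent paralogs were therefore separated in every library.

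The promoters of these 4 genes are shown so that the active and near-silent paralogs can be compared. Each line holds the 250 bases upstream of a RefSeq transcription start, 5′ to 3′ on the strand of the gene, with the CpG dinucleotides, the target of DNA methylation, in capitals. For *Hoxa10* and *Hoxd11*, which have 2 RefSeq starts each, the downstream one is shown. The windows are chr6:52234940-52235189 for *Hoxa10*, chr2:74691641-74691890 for *Hoxd10*, chr6:52245811-52246060 for *Hoxa11* and chr2:74682073-74682322 for *Hoxd11*, in the GRCm38.p6 build, and that of *Hoxa11* overlaps exons of the antisense RNA *Hoxa11os*.
Hoxa10: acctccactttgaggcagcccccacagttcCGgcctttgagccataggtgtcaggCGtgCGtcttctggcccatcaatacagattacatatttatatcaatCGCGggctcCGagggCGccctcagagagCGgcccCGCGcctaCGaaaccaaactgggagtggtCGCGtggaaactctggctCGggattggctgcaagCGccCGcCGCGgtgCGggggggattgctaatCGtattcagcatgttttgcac
Hoxd10: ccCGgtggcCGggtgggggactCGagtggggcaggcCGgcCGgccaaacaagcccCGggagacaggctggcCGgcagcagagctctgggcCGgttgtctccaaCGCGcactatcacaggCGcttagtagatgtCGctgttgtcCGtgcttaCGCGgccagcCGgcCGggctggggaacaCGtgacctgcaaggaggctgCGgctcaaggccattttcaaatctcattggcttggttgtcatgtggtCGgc
Hoxa11: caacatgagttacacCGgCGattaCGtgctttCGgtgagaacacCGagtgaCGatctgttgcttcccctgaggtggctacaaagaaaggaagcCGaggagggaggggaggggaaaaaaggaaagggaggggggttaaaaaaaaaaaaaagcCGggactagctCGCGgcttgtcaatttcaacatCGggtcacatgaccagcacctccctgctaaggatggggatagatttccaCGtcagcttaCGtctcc
Hoxd11: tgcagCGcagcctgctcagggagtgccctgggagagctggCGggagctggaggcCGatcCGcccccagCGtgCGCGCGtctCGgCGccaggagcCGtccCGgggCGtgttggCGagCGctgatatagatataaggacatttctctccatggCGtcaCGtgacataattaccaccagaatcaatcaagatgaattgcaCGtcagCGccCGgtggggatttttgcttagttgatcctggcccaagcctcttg

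The *Hoxa10* and *Hoxd10* windows held 20 CpG dinucleotides each, and those of *Hoxa11* and *Hoxd11* 13 and 20. At the upstream starts, which are not shown, the windows held 7 for *Hoxa10* and 2 for *Hoxd11*, so the order of the paralogs by CpG count depended on the start taken. RefSeq entries were matched for 22 of the 38 genes, with 24 promoters, mostly of clusters A and D and none of *Hoxc10*. Some windows, such as those of *Hoxa3*, *Hoxa6* and *Hoxa7*, overlap exons of the gene itself. A reference set of 32851 promoters left out a chromosome and entries without 250 bases before the start. The 24 Hox promoters held a median of 12.5 CpG dinucleotides, against 6 in the reference set. The Hox median was 13 in the 15 promoters of genes with enough reads to be tested and 12 in the 9 promoters of the others.

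Searched on both strands, 14 of the 24 Hox promoters matched (58.3%) held the letters CCAAT, against 33.8% of the reference set. The letters TATAAA were found in 16.7% against 12.4%. TGATTNAT, a form of the site that Hox and Pbx proteins bind jointly, was found in 8.33% against 2.82%, that is in 2 Hox promoters, those of *Hoxa2* and of the downstream start of *Hoxd11*. The letters of the 3 motifs can overlap, and a match describes the sequence and no more.

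In the middle of the clusters, the leading genes differed by group. *Hoxa5*, which patterns the cervical and thoracic skeleton and the lung, had 8.84 TPM (5.95 to 11.8), next after the 4 leading genes, and made up 73.9% of group 5. *Hoxd8* was the highest gene of cluster D at 7.90 TPM and made up 50.5% of group 8, ahead of *Hoxc8* at 34.6% and *Hoxb8* at 14.9%. *Hoxc9* and *Hoxc6* had 6.96 and 5.22 TPM. *Hoxb4*, the leading gene of cluster B and known from blood stem cells, had 4.82 TPM, and together with *Hoxc4* at 4.48 TPM it carried most of group 4. *Hoxa7* had 4.30 TPM and *Hoxc11* 3.46 TPM.

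Every gene described in paralog groups 1, 12 and 13 had a mean under 1 TPM. In group 13, some of whose genes shape the hand and foot, *Hoxa13* had 0.797 TPM, *Hoxd13* 0.189 TPM, *Hoxc13* 0.108 TPM and *Hoxb13* 0.0158 TPM. In group 1, which acts in the hindbrain, *Hoxb1* had 0.230 TPM and *Hoxd1* 0.122 TPM. *Hoxd12* had 0.0519 TPM and *Hoxd3* 0.0197 TPM. *Hoxd3* and *Hoxd4* share 2613 of the 4191 and 1542 of the 2948 exon bases annotated for them with other genes on the same strand, so their reads could have been left uncounted or split, and their levels are uncertain.

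Summed over the genes described, cluster A held 69.1, 76.3 and 60.4 TPM in Control mice against 87.0, 78.3 and 80.9 TPM in LS1 mice. Cluster C held 52.4, 57.2 and 56.0 against 64.8, 58.2 and 50.6 TPM. Cluster B held 10.1, 15.7 and 15.5 against 11.2, 18.5 and 15.3 TPM, and cluster D 8.81, 8.42 and 9.47 against 11.1, 13.8 and 10.95 TPM. The LS1 libraries lay above the Control libraries for clusters A and D, and the groups overlapped for B and C. No test was made of these sums.

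As shares of the Hox total, which do not depend on its size, cluster A held 46.8% ± 3.5 of it in Control mice and 49.2% ± 2.5 of it in LS1 mice (SD, n = 3 each). Cluster C held 37.7% ± 1.7 and 34.6% ± 2.6, cluster B 9.38% ± 2.0 and 9.03% ± 2.3, and cluster D 6.10% ± 0.69 and 7.17% ± 0.94. All 4 shares overlapped between the groups. Paralog groups 9 to 13 held 60.4%, 59.2% and 62.0% of the total in Control mice against 66.2%, 63.2% and 62.6% in LS1 mice. The lowest LS1 share was 62.6% and the highest Control share 62.0%, a gap smaller than the spread within either group.

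**Figure D2:**
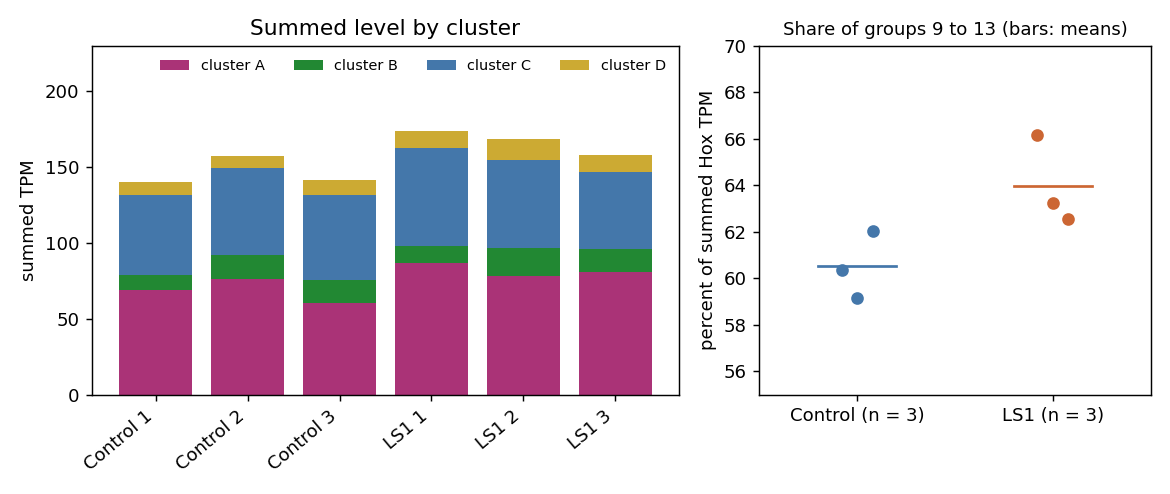
Left, summed TPM of the Hox genes of each cluster, stacked, in each of the 6 libraries. Right, the share of paralog groups 9 to 13 in the summed Hox TPM, in percent on an axis that starts at 55, with 1 point per library and the group mean as a line. The right panel runs from 59.2 to 62.0 in Control and from 62.6 to 66.2 in LS1.

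The comparison of LS1 with Control asked which genes differ in the growth plate region of mice selected for long tibiae. No Hox gene passed the test in these 6 libraries, and the estimates lay on both sides of 0, from -0.40 to 1.46 on the log2 scale. Of the 38 genes, 27 had a mean of at least 20 reads and were tested (10 of 10 in cluster A, 8 of 10 in B, 7 of 9 in C and 2 of 9 in D). With limma and Benjamini-Hochberg adjustment over 19308 genes, 0 of the 27 had an adjusted p under 0.05, against 14 genes, or 0.0725%, of all genes tested, and the adjusted p of the Hox genes ran from 0.306 to 0.994. By edgeR and DESeq2 the count was also 0, against 7 and 459 of all genes tested.

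At an unadjusted p under 0.05, limma marked 4 of the 27, against 12.9% of all genes tested. All 4 (*Hoxa3*, *Hoxa10*, *Hoxa11* and *Hoxa13*) had higher values in LS1. Of all genes tested, 7.08% were both marked and higher in LS1, that is 1367 of the 2499 marked. Counted in either direction, 4 of 27 is close to the background. *Hoxa13* was not among the genes with an unadjusted p under 0.05 by edgeR or DESeq2, nor with the Y-linked sum as a covariate, and the other 3 were. The groups did not overlap for 5 of the 27, the same 4 and *Hoxd8*, against 19.2% of all genes. Again all 5 were higher in LS1. Of all genes tested, 10.3% were both without overlap and higher in LS1, that is 1981 of the 3707 without overlap. The median log2 fold change was 0.06 over the 27 Hox genes and 0.01 over all genes tested, with 16 Hox genes above 0 and 11 below (50.7% of all genes tested were above 0).

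**Figure D3:**
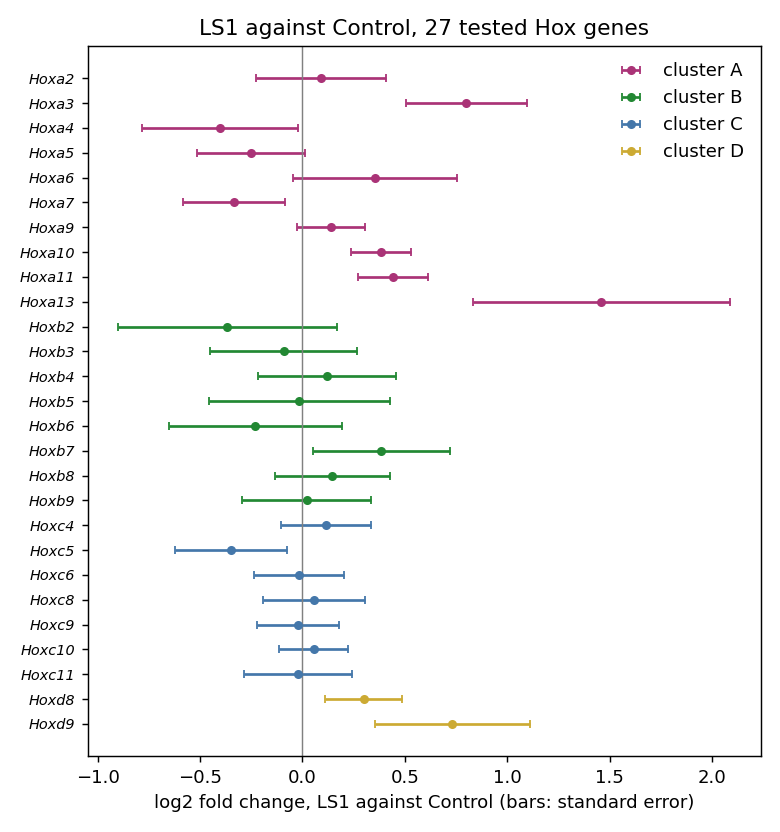
Log2 fold change of LS1 against Control for each of the 27 tested Hox genes, in cluster order, with points for the limma estimate and bars for its standard error. The estimates run from -0.40 for *Hoxa4* to 1.46 for *Hoxa13*, and 0 of the 27 passed an adjusted p of 0.05.

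*Hoxa10*, of the group that acts in the thigh, had normalized counts of 1903, 1895 and 1744 in the Control and 2730, 2183 and 2352 in the LS1 libraries. Every LS1 library lay above every Control library. The mean was 1847 ± 89.3 (SD, n = 3) against 2422 ± 280.3 (SD, n = 3), a log2 fold change of 0.39 (SE 0.15), or 1.31-fold, with a limma p of 0.0233 and an adjusted p of 0.313. Without Control replicate 2 or Control replicate 3 the unadjusted p was no longer under 0.05.

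*Hoxa11*, of the group that shapes the lower leg and so the tibia, had 727, 613 and 648 normalized counts in Control and 915, 875 and 905 in LS1. The groups did not overlap, and the LS1 libraries lay close together. The log2 fold change was 0.44 (SE 0.17), or 1.36-fold, with a limma p of 0.0248 and an adjusted p of 0.317, and the unadjusted p was above 0.05 when either Control replicate 2 or 3 was omitted, and likewise LS1 replicate 3. Of its 2287 exon bases, 800 are shared with *Hoxa11os* on the opposite strand. *Hoxa11os* itself had 117 to 242 reads per library and a log2 fold change of 0.38 (SE 0.27, limma adjusted p = 0.588). Whether the counting used strand is not given in the sources used here, and without strand the reads of the 2 genes cannot be told apart where they overlap.

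*Hoxa13*, which acts in the foot, had 6.05, 42.1 and 40.9 normalized counts in Control and 63.8, 64.4 and 61.6 in LS1. The groups did not overlap, but Control replicate 1, with 6 reads, was far below the others of its group. The log2 fold change was 1.46 by limma (SE 0.63, limma adjusted p = 0.362), against 1.08 by edgeR and 1.09 by DESeq2. By limma it was 1.90 without Control replicate 2 and 0.60 without Control replicate 1, so the latter library decided the size. Without Control replicate 1 the unadjusted p was no longer under 0.05. The same loss came without any 1 of the 3 LS1 libraries.

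*Hoxa3*, known for its part in the throat glands and neck, had 49.4, 75.4 and 63.0 normalized counts in Control and 116, 102 and 107 in LS1, without overlap. The log2 fold change was 0.80 (SE 0.29), with a limma p of 0.0198 and an adjusted p of 0.306, and the unadjusted p was not under 0.05 without Control replicate 1. *Hoxa3* is covered by antisense genes, *Hoxaas2* and *Hoxaas3* among them, over 1529 of its 6014 exon bases. Those 2 RNAs had log2 fold changes of -0.38 and -0.63 (limma adjusted p = 0.679 and 0.553).

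*Hoxd8* had 503, 409 and 474 normalized counts in Control and 574, 583 and 545 in LS1, without overlap, and a log2 fold change of 0.30 (SE 0.19, limma adjusted p = 0.527). Its neighbour *Hoxd9*, which acts in the lower spine and the limb, had 46.4, 52.1 and 80.7 against 65.7, 153 and 90.5. The groups of *Hoxd9* overlapped, and LS1 replicate 2 was the highest library by a wide margin. The log2 fold change of *Hoxd9* was 0.73 (SE 0.38, limma adjusted p = 0.445) with all libraries. It was 0.40 without LS1 replicate 2, 1.01 without LS1 replicate 1 and 0.97 without Control replicate 3, and in the last 2 of these fits the unadjusted p was under 0.05.

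The other leading genes gave overlapping groups. *Hoxc10*, the highest Hox gene and typical of the hindlimb, had 1210, 1228 and 1348 normalized counts in Control and 1546, 1279 and 1136 in LS1. LS1 replicate 1 was above and LS1 replicate 3 below all Control libraries, and the log2 fold change was 0.06 (SE 0.17). *Hoxa9*, a gene of blood progenitors as well as of the limb, had 1458, 1749 and 1446 against 1976, 1663 and 1497, with a log2 fold change of 0.14 (SE 0.17).

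In cluster C, *Hoxc9* had 366, 387 and 467 normalized counts in Control and 400, 402 and 392 in LS1. *Hoxc8*, a gene of the thoracic skeleton, had 399, 358 and 306 against 509, 312 and 310. *Hoxc11*, a hindlimb paralog of *Hoxa11*, had 132, 178 and 191 against 134, 186 and 173. All 3 overlapped between the groups, with log2 fold changes of -0.02, 0.06 and -0.02 for *Hoxc9*, *Hoxc8* and *Hoxc11* in that order, each smaller than its SE.

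In cluster B, *Hoxb4* had 193, 329 and 299.7 normalized counts in Control and 185, 457 and 289 in LS1, and its log2 fold change was 0.12 (SE 0.34). *Hoxb8*, used with the other genes of its group in the thoracic region and in myeloid cells, had 101, 176 and 139 against 131, 165 and 155. *Hoxb7* had 46.4, 61.0 and 79.6 against 88.6, 60.9 and 94.2, and *Hoxb9* 65.6, 106 and 125 against 91.4, 91.4 and 109. The groups overlapped for all 4, with ranges within a group wider than the gap between means.

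**Figure D4:**
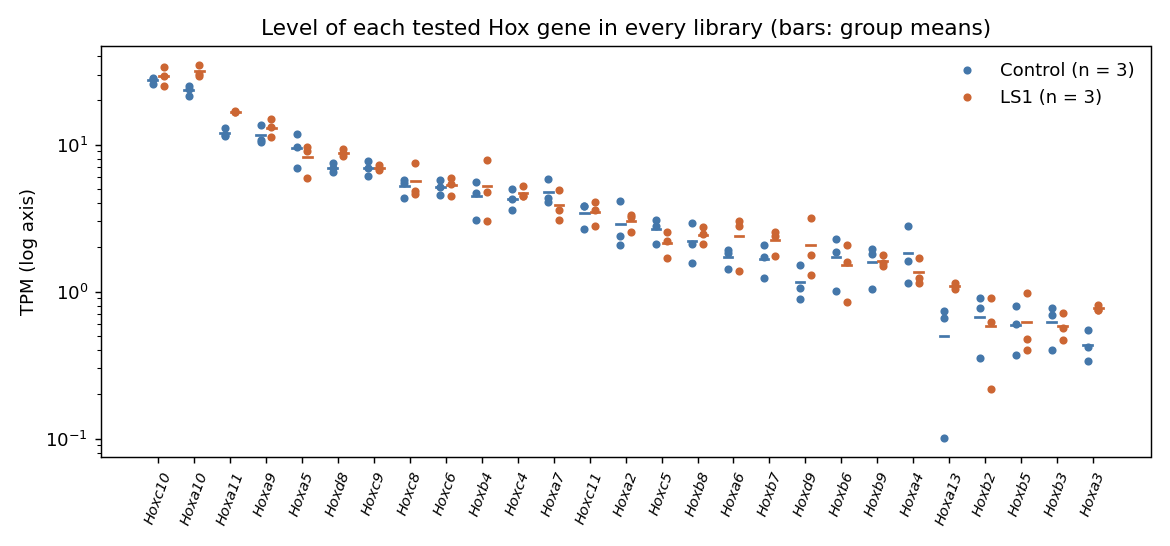
TPM on a log axis of each of the 27 tested Hox genes, ordered by mean, with 1 point per library (3 Control, 3 LS1) and short lines for the group means. *Hoxa10*, *Hoxa11*, *Hoxd8*, *Hoxa13* and *Hoxa3* are the genes whose normalized counts did not overlap between the groups, and the lowest point of *Hoxa13* is Control replicate 1 at 0.100 TPM.

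By cluster, the median log2 fold change was 0.25 in A (7 of 10 tested genes above 0, range -0.40 to 1.46), 0.00 in B (4 of 8, range -0.37 to 0.39), -0.02 in C (3 of 7, range -0.35 to 0.11) and 0.52 for the 2 genes of D. The genes of A below 0 were *Hoxa4*, *Hoxa5* and *Hoxa7*, with log2 fold changes of -0.40 (SE 0.38), -0.25 (SE 0.26) and -0.34 (SE 0.25). The other tested genes with overlapping groups, *Hoxa2*, *Hoxa6*, *Hoxb2*, *Hoxb3*, *Hoxb5*, *Hoxb6*, *Hoxc4*, *Hoxc5* and *Hoxc6*, had estimates between -0.37 and 0.35. The 11 genes not tested (*Hoxb1*, *Hoxb13*, *Hoxc12*, *Hoxc13*, *Hoxd1*, *Hoxd3*, *Hoxd4* and *Hoxd10* to *Hoxd13*) had means of 0.833 to 18.0 reads. *Hoxd4*, for example, had 12, 26 and 12 reads in Control and 15, 26 and 17 in LS1, and *Hoxd13* 2, 3 and 17 against 9, 23 and 15.

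Whether the cluster A gene changed its part within a paralog group was examined for the 3 groups of the limb axis with the highest levels, by a two-sided exact permutation test over libraries, which cannot give a p below 0.1 with 3 mice against 3. *Hoxa10* made up 47.8%, 47.2% and 42.9% of group 10 in Control and 50.4%, 49.7% and 54.5% in LS1, without overlap (means 46.0% and 51.6%, exact p = 0.1, the smallest possible, adjusted over the 3 tests 0.3). *Hoxa11* made up 77.4% of group 11 in Control and 82.6% in LS1 on average, with overlap (exact p = 0.3, adjusted 0.45). *Hoxa9* made up 54.4% and 54.98% of group 9 (exact p = 1, adjusted 1).

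No marker of the cell types in the piece passed the test by limma, but the summed levels of some lists did not overlap between the lines. Limma called 14 genes in all, against 459 by DESeq2. The paper, which used DESeq2, listed the chondrocyte markers *Hapln1*, *Matn3* and *Col10a1* as higher in LS1 by RNA sequencing. It listed *Col2a1*, *Sox9* and *Ihh* as not different. Of 14 chondrocyte markers, 12 had higher values in LS1, 8 of them with a limma p under 0.05 and 0 with an adjusted p under 0.05 (smallest 0.125), with a median log2 fold change of 0.49. The summed normalized counts of the chondrocyte markers were 2537980 to 2938960 in Control and 3322590 to 3882330 in LS1, without overlap. Tendon and fibrous tissue markers (7 of 8 higher, median 0.33, sums of 90525 to 99848 against 106659 to 126102) had 0 genes with an adjusted p under 0.05 (smallest 0.198), and Schwann cell sums were 6239 to 7789 against 8205 to 9843 with a median of 0.01. All 8 erythroid and 7 of 8 B cell markers had lower values in LS1, with medians of -0.52 and -0.44. Erythroid sums did not overlap either, at 469928 to 677490 in Control against 264674 to 452159 in LS1. B cell sums were 49854.5 to 52459.4 against 30345.5 to 46570.2, also without overlap. All 8 skeletal muscle markers were lower as well (median -0.63), with overlapping sums. The part of these lists in the Hox results was not tested. In bulk tissue fewer cells of a type and less RNA per cell cannot be told apart.

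The remaining marker lists had medians of 0.01 (osteoblast, 4 of 8 higher), 0.31 (neutrophil, 6 of 7), 0.23 (macrophage, 6 of 6), 0.09 (endothelial, 4 of 5) and -0.02 (hematopoietic progenitor, 4 of 8, cells known to express several genes of clusters A and B). No list held a gene with an adjusted p under 0.05, by limma. An unadjusted limma p under 0.05 was found for 12.9% of all genes tested. Among the markers it was found for 3 of 8 erythroid, 5 of 8 B cell, 0 of 8 muscle and 2 of 8 tendon genes. For Schwann cells it was 3 of 6, with 2 higher and 1 lower in LS1. The other lists held 1 of 8 osteoblast, 2 of 7 neutrophil, 1 of 6 macrophage, 1 of 5 endothelial and 0 of 8 progenitor markers.

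The machinery around the Hox genes showed no difference that passed the test. All 9 DNA-binding partners of the TALE class were tested, 3 with higher and 6 with lower values in LS1 (median log2 fold change -0.09). Their leading genes by TPM were *Pbx2*, *Meis3* and *Pknox1*, with log2 fold changes of -0.18, -0.10 and -0.02. The 28 Trithorax, Polycomb and boundary factors (9 higher, 19 lower, median -0.08) were led by *Ctcf*, which marks domain borders within the clusters, and by the Polycomb subunits *Ezh2* and *Suz12*, with log2 fold changes of 0.05, 0.00 and 0.05. For both lists 0 genes had an unadjusted limma p under 0.05, as for the lists of noncoding RNAs and flanking genes.

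The Cdx genes, which switch on Hox clusters in the embryo, had at most 12 reads in a library and were not tested. Of the 11 noncoding RNAs of the clusters that were counted, 7 were tested (4 higher, 3 lower, median 0.07), and *Hottip*, at the 5′ end of cluster A, had at most 1 read in a library, while *Hotair*, in cluster C, had 10 to 50. The flanking genes gave a median of 0.13 (5 of 8 higher), and *Evx1* and *Evx2*, which lie beside *Hoxa13* and *Hoxd13*, had at most 7 and 4 reads in a library. Of the limb patterning factors outside the clusters, 12 of 17 had higher values (median 0.09) and 1 had an unadjusted p under 0.05, *Tbx2*, at -0.52 (limma adjusted p = 0.356). The higher *Shox2*, *Ihh* and *Prrx1* had estimates of 0.23, 0.34 and 0.29 (limma adjusted p = 0.633, 0.530 and 0.511).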

How the data were processed

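PolyA RNA of 6 mice was sequenced by the authors on a 5500xl instrument, mapped to GRCm38 with HISAT2 2.0.2 and counted per Ensembl gene with featureCounts 1.4.6. The deposited signal is the read count of a gene divided by 1 DESeq2 size factor per library, called normalized count here. Every value was a whole multiple of the value of 1 read (0.870 to 1.11), so reads were recovered for 100% of values. Mice of a line came from different families.

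TPM used recovered reads and union exon lengths of GENCODE M21, matched for 99.1% of gene IDs. LS1 and Control were compared with limma 3.58.1 (trend, robust) on log2(normalized count + 1), for genes with a mean of at least 20 reads. Benjamini-Hochberg adjustment was made over all of them. The added 1 draws log2 fold changes of low genes toward 0. The limma estimate of *Hoxa13*, 1.46, was nonetheless above those of edgeR (1.08) and DESeq2 (1.09). Alternatives used edgeR 4.0.16 and DESeq2 1.42.0 on recovered reads, in R 4.3.3, other filters, pseudocounts and lengths and a Y-linked covariate, and left out each library. The fit was tested on simulated data. Motifs were searched in RefSeq promoters of GRCm38.p6.

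The Hox genes and the other lists were chosen with earlier results of these data known. Of 39 genes meeting the symbol rule, 1 is not reported here, and all counts, sums and shares of Hox genes leave it out. Values in every library are given for the 3 genes with the highest mean TPM in each cluster, for genes with an unadjusted p under 0.05 or groups that did not overlap, and for paralog groups 9 to 11. From other lists up to 4 genes were named by mean TPM, and *Hoxa11os*, *Hoxaas2*, *Hoxaas3*, *Hottip*, *Hotair*, *Evx1*, *Evx2*, *Tbx2* and the limb markers were named after their values were seen. The promoters shown were chosen after the levels were seen.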

Additional observations from a re-analysis of the deposited data

How the results depend on the processing

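Across 18 alternatives for the gene tests, 0 Hox genes had an adjusted p under 0.05 in each. The count of Hox genes with an unadjusted p under 0.05, which was 4, became 2 among genes with a mean of at least 100 reads, 1 with edgeR without Control replicate 1, an alternative chosen after seeing the data, and 2 to 4 when each library was left out in turn. Without LS1 replicate 3, the library that stood apart, *Hoxa10* and *Hoxa3* were left. The median log2 fold change of the tested Hox genes ran from -0.064 (without Control replicate 1) to 0.12 on leaving out a library. The number of all genes with an adjusted p under 0.05, which was 14, was 7 with edgeR, 459 with DESeq2, 9 at a mean of at least 100 reads, 45 with no filter, 7 without robust moderation, 5 with edgeR without Control replicate 1, and 5 to 324 on leaving out a library. The cause of these shifts was not tested.

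The sign of the log2 fold change reversed for genes near 0. With edgeR without Control replicate 1 it was -0.039 for *Hoxb4*, -0.087 for *Hoxb8* and -0.27 for *Hoxb9*, and *Hoxb9* was also at -0.038 with edgeR, -0.033 with DESeq2 and -0.086 with the Y-linked sum as a covariate. On leaving out a library the ranges were -0.21 to 0.44 for *Hoxb4*, -0.064 to 0.33 for *Hoxb8*, -0.25 to 0.21 for *Hoxb9*, -0.18 to 0.18 for *Hoxc8*, -0.095 to 0.080 for *Hoxc9*, -0.064 to 0.16 for *Hoxc10* and -0.18 to 0.12 for *Hoxc11*. *Hoxa3*, *Hoxa9*, *Hoxa10*, *Hoxa11*, *Hoxa13*, *Hoxb7*, *Hoxd8* and *Hoxd9* kept their direction in every alternative run.

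Shares of the Hox total depend on the length used. With the longest transcript, cluster A held 50.5% in Control and 52.9% in LS1, and cluster C 35.6% in Control. With reads and no length, cluster A held 54.1% and 56.8%, cluster C 31.2% and 28.1%, and groups 9 to 13 64.4% and 67.7%.

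Libraries of the groups share a letter in their names. The labels do not say what the letters mean, so they were not taken as pairs in the main fit. Deviations from the group means correlated at 0.05, 0.02 and 0.22 for the 3 letters, which does not decide whether they mark pairs. With the letter as a replicate block, 12 genes in all and 0 Hox genes had an adjusted p under 0.05, the smallest Hox value was 0.190, and the same 4 Hox genes had an unadjusted p under 0.05. With 3 mice a group, the limma p-values set the difference between groups against the spread among mice within them, moderated over all genes. Each group is a single line, so effects of the selection cannot be told apart from other differences between the lines.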
